A study of Mus musculus with 12 samples.

Results

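The 10 genes described here encode the core of the nuclear factor kappa B (NF-kB) pathway: the IkB kinase (IKK) subunits Chuk (IKKα), Ikbkb (IKKβ) and Ikbkg (NEMO), the 5 NF-kB subunits Rela, Rel, Relb, Nfkb1 and Nfkb2, and the feedback inhibitors Nfkbia (IκBα) and Tnfaip3 (A20). They were taken by symbol from a table of 55471 mouse genes, and all 10 were found and had enough reads to be tested. RNA was sequenced from colonic crypts of 12 female C57BL/6J mice of 8 weeks, 3 mice in each of 4 groups. CBP-AA mice carry a knock-in in which the CBP serines phosphorylated by IKKα are alanines in every cell, and CBP-WT mice are their littermates. All mice carry floxed p53 alleles. Without Cre, p53 is intact in the 2 groups named CBP-WT p53-floxed and, with the knock-in, CBP-AA p53-floxed. Villin-Cre, active in intestinal epithelial cells, removed p53 there in the CBP-WT p53-deltaIEC group and, with the knock-in, in the CBP-AA p53-deltaIEC group. This order of the 4 groups is kept below. Since IKKα is the kinase that phosphorylates CBP, the comparison of CBP-AA with CBP-WT crypts asks whether the transcripts of the kinase and of its pathway differ when the CBP sites are lost, and the p53 comparison asks the same of p53 deletion.

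In resting cells NF-kB dimers are held in the cytoplasm by IκB proteins. In the canonical pathway receptors of the tumour necrosis factor, interleukin-1 and Toll-like families activate a complex of IKKα, IKKβ and NEMO, which marks IκBα for degradation and frees dimers of p65 (Rela), c-Rel (Rel) and p50 (from Nfkb1), while in the non-canonical pathway IKKα drives processing of the Nfkb2 product p100 to p52, which pairs with Relb. NF-kB in turn switches on its own inhibitors Nfkbia and Tnfaip3, and in intestinal epithelium the pathway is known for guarding the barrier against microbial products. Much of this control acts on protein, which was not measured here.

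The windows around the start sites of 7 of the 10 genes were matched in RefSeq (build GRCm38.p6), each with 250 bases before and 50 bases after the start. Windows of Ikbkb, Nfkb1 and Relb were not analysed here. The κB consensus, the 10-base motif bound by NF-kB dimers, was searched on both strands and lay in at least 1 window of Nfkbia, Tnfaip3, Rel and Nfkb2. No match was found in the windows of Chuk, Rela and Ikbkg, and 8.46% of all 32851 windows held a match. That share is per window, whereas the 7 genes had 13 windows between them, so it cannot be set against a count of genes. The Nfkbia window, the first of the 2 Tnfaip3 windows (the second held no match), the first of the 3 Nfkb2 windows and the Chuk window are shown because they set genes with the motif letters beside the kinase gene without them. All are written 5′ to 3′ on the strand of the gene, with matches in capitals. The Nfkbia window is chr12:55492598-55492897 (minus strand), the first Tnfaip3 window chr10:19015361-19015660 (minus strand), the first Nfkb2 window chr19:46304487-46304786 (plus strand) and the Chuk window chr19:44107428-44107727 (minus strand).
Nfkbia: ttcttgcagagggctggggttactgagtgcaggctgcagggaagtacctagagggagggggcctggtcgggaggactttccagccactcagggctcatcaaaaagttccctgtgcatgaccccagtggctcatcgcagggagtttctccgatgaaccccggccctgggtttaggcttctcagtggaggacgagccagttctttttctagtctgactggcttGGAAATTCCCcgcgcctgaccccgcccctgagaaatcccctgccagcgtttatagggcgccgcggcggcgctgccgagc
Tnfaip3: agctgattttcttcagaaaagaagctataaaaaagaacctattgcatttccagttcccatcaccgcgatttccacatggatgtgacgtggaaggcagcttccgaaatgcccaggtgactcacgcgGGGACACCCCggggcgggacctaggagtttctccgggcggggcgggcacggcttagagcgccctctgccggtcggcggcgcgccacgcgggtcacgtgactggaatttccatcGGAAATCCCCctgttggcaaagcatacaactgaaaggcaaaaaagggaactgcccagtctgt
Nfkb2: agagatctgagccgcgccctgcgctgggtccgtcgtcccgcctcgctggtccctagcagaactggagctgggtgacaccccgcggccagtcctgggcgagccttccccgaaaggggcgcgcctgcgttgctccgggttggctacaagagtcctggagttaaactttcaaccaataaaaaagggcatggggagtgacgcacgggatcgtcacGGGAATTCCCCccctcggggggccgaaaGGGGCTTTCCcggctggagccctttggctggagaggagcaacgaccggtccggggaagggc
Chuk: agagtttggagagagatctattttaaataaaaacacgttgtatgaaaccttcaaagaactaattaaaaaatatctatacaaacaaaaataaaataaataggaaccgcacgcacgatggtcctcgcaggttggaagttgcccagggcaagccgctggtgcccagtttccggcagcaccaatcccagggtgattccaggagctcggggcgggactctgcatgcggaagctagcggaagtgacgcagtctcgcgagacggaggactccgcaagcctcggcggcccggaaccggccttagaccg
The match in the Nfkbia window began 29 bases before the start, and the matches of Tnfaip3 began 125 and 12 bases before it. Those of Nfkb2 began 39 and 11 bases before the start, and the first of its runs of capitals is longer because 2 overlapping stretches match. A match is only a run of letters and was not tested as a binding site.

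The libraries held 11177430 to 18029125 counted reads. Trp53 was measured at 23.3 to 33.5 TPM (reads scaled by gene length and library size) in the 6 p53-floxed libraries and at 3.26 to 6.13 TPM in the 6 p53-deltaIEC libraries, so that each library matched its p53 label. Crebbp, which encodes CBP, lay between 5.98 and 11.5 TPM, and because the knock-in changes codons, its level does not check the CBP label. All 10 epithelial markers were tested, with a summed level of 19798 to 36339 TPM, whereas the summed level of 15 leukocyte markers was 6.98 to 14.0 TPM, that of 8 stromal markers 1.75 to 2.92 TPM and that of 4 endothelial markers 0.549 to 1.41 TPM. Of the leukocyte markers 9 of 15 passed the count filter, with at most 145 reads for Ptprc and 72 for Coro1a in any library. The stromal marker Vim and the endothelial marker Pecam1 also passed, with at most 89 and 43 reads. Among the markers that did not pass, the endothelial Cdh5 was at 0 in every library. The B cell marker Cd79a and the macrophage marker Adgre1 reached at most 1 read. Genes of another tissue set 4 libraries apart. The summed level of 6 genes known from small intestine and Paneth cells (Defa24, Lyz1, Fabp6, Apoa1, Apoa4 and Sis) was 1297 TPM in CBP-AA p53-floxed mouse 2, 14041 TPM in CBP-WT p53-deltaIEC mouse 1, 2093 TPM in CBP-AA p53-deltaIEC mouse 1 and 4146 TPM in CBP-AA p53-deltaIEC mouse 3, against 8.81 to 58.1 TPM in the other 8. No CBP-WT p53-floxed library was among them, although the tissue of all samples is labelled as colonic crypts. In CBP-AA p53-floxed mouse 2 and CBP-WT p53-deltaIEC mouse 1 the median log2 level of the longest 10% of tested genes, relative to that of the shortest 10%, was also the lowest, at -0.51 and -0.36 against -0.07 to 0.24 in the others. Results for the 10 genes are therefore given with all 12 libraries and, where they moved, without these 4, a choice made after the data were seen, which leaves 1 mouse in the CBP-AA p53-deltaIEC group whose spread is assumed to be that of the others.

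The order of the 10 genes was led by the inhibitor Nfkbia. Over the 12 libraries its mean level was 119 ± 17.9 TPM (SD, n = 12), and it lay above Chuk in 12 of 12 libraries with no overlap of their ranges. Chuk followed at 37.0 ± 4.32 TPM, then Rela at 34.0 ± 3.25, Relb at 26.5 ± 3.39, Nfkb2 at 23.2 ± 3.15, Ikbkg at 18.4 ± 2.42, Tnfaip3 at 13.5 ± 3.33, Nfkb1 at 11.3 ± 1.54, Ikbkb at 6.72 ± 0.943 and Rel at 4.38 ± 0.893 TPM. TPM divides reads by the length assigned to each gene, so this order depends on those lengths. Ikbkb is longer than 99.2% and Nfkb1 longer than 95.2% of tested genes, but Rela than only 37.4%. In reads the order differed: CBP-WT p53-floxed mouse 1 had 577 of Nfkb1, 503 of Nfkb2 and 419 of Rela. The ranges of neighbours overlapped at each step except between Nfkbia and Chuk and between Nfkb1 and Ikbkb, but within single libraries the order was tighter: Rela exceeded Relb, Ikbkg exceeded Tnfaip3, and Ikbkb exceeded Rel in 12 of 12 libraries, whereas Chuk exceeded Rela in 10 and Tnfaip3 exceeded Nfkb1 in 8. In bulk crypts fewer cells of a type and less RNA per cell cannot be told apart.

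**Figure D1:**
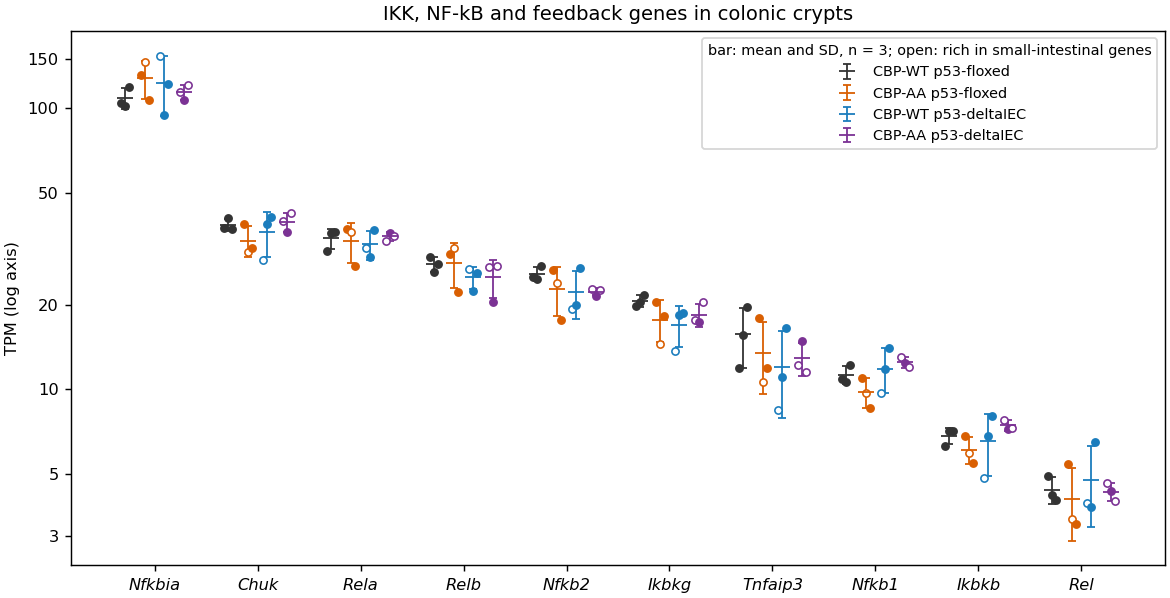
TPM of each gene (log axis) in the 4 groups, with 1 point per mouse and a bar for the mean with its SD (n = 3). Open points are the 4 libraries rich in small-intestinal genes. Nfkbia lies at 94.8 to 154.3 TPM, above every other gene, and Rel at 3.31 to 6.51 TPM is the lowest by its mean, while the groups of each gene lie close together.

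Among the kinase subunits, Chuk was measured in every library at several times the TPM of Ikbkb. In reads the difference was smaller, with 739 to 1359 per library for Chuk and 463 to 902 for Ikbkb. Chuk (chromosome 19, 44073335 to 44107480, minus strand) stood at 37.6, 40.8 and 37.2 TPM in the 3 CBP-WT p53-floxed mice and at 38.7, 30.7 and 31.9 TPM in the CBP-AA p53-floxed mice. It stood at 28.8, 38.6 and 41.1 TPM in the CBP-WT p53-deltaIEC mice and at 39.6, 36.2 and 42.3 TPM in the CBP-AA p53-deltaIEC mice. All groups overlapped, and the lowest values, 28.8 and 30.7, came from the pair of libraries that combined small-intestinal genes with low levels of long genes. In edgeR's quasi-likelihood test on the counts the Chuk ratio of CBP-AA p53-floxed to CBP-WT p53-floxed was 0.952 (95% interval 0.821 to 1.10, log2 fold change -0.07 ± 0.10, SE). The ratio was 0.954 (0.823 to 1.11) for p53 deletion in CBP-WT mice, 1.07 (0.921 to 1.24) for p53 deletion in CBP-AA mice and 1.07 (0.919 to 1.24) for CBP-AA over CBP-WT in p53-deltaIEC mice. Averaged over the other factor, the interval of the Chuk ratio was 0.907 to 1.12 for CBP-AA and 0.909 to 1.12 for p53 deletion, so that a log2 fold change of 0.5, the size required for a call, lay outside both intervals. Chuk was also steady between mice: the SD of its log2 level over the 12 libraries, 0.10, was below that of all but 4.19% of the 14610 genes tested, whose median SD was 0.24.

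Ikbkb (chromosome 8, 22659212 to 22706589, minus strand), the catalytic partner of IKKα, ranged from 4.81 to 8.05 TPM. In the order of the 4 groups its means were 6.83 ± 0.464, 6.07 ± 0.668, 6.56 ± 1.64 and 7.44 ± 0.310 TPM (SD, n = 3). The 3 CBP-AA p53-deltaIEC mice, at 7.23 to 7.79 TPM, lay above the 3 CBP-AA p53-floxed mice, at 5.48 to 6.79, but the log2 fold change was only 0.16 ± 0.09 (adjusted p = 0.464, edgeR). Within a library the TPM of Chuk exceeded that of Ikbkb by 5.53 ± 0.371 times (SD over 12 libraries), and the ratio stayed between 5.01 and 5.99. The size of this ratio depends on the assigned lengths, as Ikbkb is longer than 99.2% of tested genes and Chuk than 63.4%. Ikbkg (chromosome X, 74393290 to 74453854, plus strand), which encodes the regulatory subunit NEMO, stood at 19.7, 20.5 and 21.6 TPM in CBP-WT p53-floxed mice and at 20.4, 14.5 and 18.3 TPM in CBP-AA p53-floxed mice. It stood at 13.7, 18.4 and 18.7 TPM in CBP-WT p53-deltaIEC mice and at 17.6, 17.3 and 20.4 TPM in CBP-AA p53-deltaIEC mice. Every CBP-WT p53-deltaIEC mouse thus lay below every CBP-WT p53-floxed mouse, with a log2 fold change of -0.26 ± 0.12 (adjusted p = 0.244, edgeR). Averaged over CBP genotypes, the log2 fold change of Ikbkg with p53 deletion was -0.16 ± 0.09 (adjusted p = 0.279, edgeR) with all libraries. Without the 4 libraries rich in small-intestinal genes the fall was larger and its SE smaller, at -0.27 ± 0.07, with 1 CBP-AA p53-deltaIEC mouse left. Relb, described below, changed in the same way, so Ikbkg and Relb both moved in that setting. Ikbkg overlaps G6pdx on the other strand and Ikbkb the antisense gene Gm15346, and since the use of strand in counting is not stated, their reads cannot be told apart from those of the partner.

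Of the 5 subunits, Rela made up 34.2% ± 1.72 of the summed TPM, Relb 26.7% ± 2.44, Nfkb2 23.3% ± 1.26, Nfkb1 11.4% ± 1.35 and Rel 4.39% ± 0.653 (SD over 12 libraries). The shares depend on assigned length: Nfkb1 is longer than 95.2% of tested genes and Rela than 37.4%. In reads Nfkb1 had 534 to 980 per library, Nfkb2 420 to 840 and Rela 419 to 836, so its small share of TPM is not one of reads. Rela (chromosome 19, 5637483 to 5648130, plus strand), the main transactivating subunit of the canonical pathway, had group means of 34.4 ± 2.87, 33.7 ± 5.41, 32.8 ± 3.82 and 35.0 ± 1.29 TPM in the order of the 4 groups. Its log2 fold changes in the 4 comparisons between groups lay between -0.07 and 0.09. Rel (chromosome 11, 23736847 to 23770970, minus strand), best known from lymphocytes, was the scarcest at 128 to 249 reads per library, with group means of 4.39 ± 0.469, 4.06 ± 1.17, 4.75 ± 1.53 and 4.32 ± 0.309 TPM in the same order. No comparison of Rela or Rel reached an unadjusted p of 0.05.

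Relb (chromosome 7, 19606217 to 19629438, minus strand), the partner of p52 in the non-canonical pathway, stood at 29.5, 26.1 and 27.8 TPM in CBP-WT p53-floxed mice and at 30.2, 31.8 and 22.1 TPM in CBP-AA p53-floxed mice. It stood at 26.7, 22.4 and 26.0 TPM in CBP-WT p53-deltaIEC mice and at 27.1, 20.5 and 27.4 TPM in CBP-AA p53-deltaIEC mice. The groups overlapped in every comparison. The log2 fold change with p53 deletion, averaged over CBP genotypes, was -0.19 ± 0.12 (adjusted p = 0.358, edgeR) with all 12 libraries. Without the 4 libraries rich in small-intestinal genes it was -0.39 ± 0.08 (95% interval -0.57 to -0.21, adjusted p = 0.00314), and in CBP-WT and CBP-AA mice apart it was -0.29 ± 0.10 (adjusted p = 0.0445) and -0.49 ± 0.14 (adjusted p = 0.0383). These stayed under the fold cutoff of 0.5, which with the adjusted p called 11.1% of all genes in the average over genotypes. In that setting adjusted p was under 0.05 for 25% of 15208 genes in the average over genotypes, for 21.2% in CBP-WT mice and for 8.32% in CBP-AA mice, so that a p of this kind was common among all genes. Relb, Nfkb2, Nfkb1, Rela and Rel do not share a direction in it: Nfkb1 had a log2 fold change of 0.16 and Nfkb2 of -0.20.

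Nfkb1 (chromosome 3, 135584655 to 135691547, minus strand), the source of p105 and p50, stood at 11.0, 9.74 and 8.56 TPM in CBP-AA p53-floxed mice and at 13.0, 12.4 and 12.0 TPM in CBP-AA p53-deltaIEC mice. The 2 groups did not overlap, and the log2 fold change of 0.23 ± 0.08 had the smallest p of the 10 genes in that comparison (adjusted p = 0.338, edgeR). In CBP-WT mice Nfkb1 stood at 10.9, 10.7 and 12.2 TPM with p53 and at 9.72, 11.8 and 14.0 TPM without it, and there the groups overlapped (log2 fold change 0.10 ± 0.08). Averaged over genotypes it was 0.16 ± 0.06 (adjusted p = 0.123). Nfkb2 (chromosome 19, 46304320 to 46312385, plus strand), the source of p100 and p52, had group means of 25.7 ± 1.49, 22.7 ± 4.52, 22.1 ± 4.29 and 22.3 ± 0.682 TPM in the order of the 4 groups, and its average log2 fold change with p53 deletion was -0.17 ± 0.08 (adjusted p = 0.223). Both genes overlap other annotated genes, Nfkb1 the same-strand Gm43430 and Nfkb2 the minus-strand genes AC114539.1 and Psd, and their counts are uncertain to that extent.

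The ratio of the TPM of Nfkb2 to that of Nfkb1 within a library separated the p53 states. Its means in the 4 groups were 2.29 ± 0.0332, 2.31 ± 0.214, 1.87 ± 0.158 and 1.79 ± 0.0772 (SD, n = 3). The lowest value in the 6 p53-floxed libraries was 2.07 and the highest in the 6 p53-deltaIEC libraries 1.99, so that they did not overlap. This ratio was picked from 6 computed after the values were seen and was not tested. The other ratios of Relb to Rela (0.566 to 0.949), Chuk to Ikbkg (1.72 to 2.25), Nfkbia to Rela (2.85 to 4.85) and Nfkbia to Tnfaip3 (6.10 to 18.2) overlapped between p53 states.

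On the log2 CPM scale both feedback inhibitors varied more between libraries than the other 8 genes, with SDs of 0.29 for Nfkbia and 0.27 for Tnfaip3. Nfkbia (chromosome 12, 55489410 to 55492647, minus strand), whose protein retains NF-kB in the cytoplasm, stood at 105, 102 and 120 TPM in CBP-WT p53-floxed mice and at 130.95, 146 and 107 TPM in CBP-AA p53-floxed mice. It stood at 154.3, 94.8 and 122 TPM in CBP-WT p53-deltaIEC mice and at 115, 107 and 121 TPM in CBP-AA p53-deltaIEC mice. The highest values, 154.3 and 146, belonged to CBP-WT p53-deltaIEC mouse 1 and CBP-AA p53-floxed mouse 2, the same libraries that held the lowest Chuk and Ikbkg. In CPM (reads scaled by normalized library size but not by length) each CBP-AA p53-floxed mouse, at 79.2 to 99.6, lay above each CBP-WT p53-floxed mouse, at 63.6 to 71.4, which was not so in TPM. The log2 fold change of 0.36 ± 0.21 (adjusted p = 0.647, edgeR) was 0.24 ± 0.09 (adjusted p = 0.305) without the 4 libraries. With p53 deletion in CBP-WT mice Nfkbia had a log2 fold change of 0.26 ± 0.21 with all libraries and -0.11 ± 0.09 without the 4, so that its sign rested on mouse 1 of the deleted group. In CBP-AA mice it was -0.29 ± 0.21, and the difference between these 2 effects, the interaction, was the largest value among the 10 genes at -0.56 ± 0.29 (adjusted p = 0.519), or -0.19 ± 0.15 without the 4 libraries.

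Tnfaip3 (chromosome 10, 19000910 to 19015657, minus strand), an ubiquitin-editing enzyme that ends signalling, stood at 11.9, 15.6 and 19.6 TPM in CBP-WT p53-floxed mice and at 17.9, 10.7 and 11.9 TPM in CBP-AA p53-floxed mice. It stood at 8.46, 11.1 and 16.5 TPM in CBP-WT p53-deltaIEC mice and at 12.2, 14.9 and 11.6 TPM in CBP-AA p53-deltaIEC mice. The groups overlapped in each comparison. The lowest values, 8.46 and 10.7, came from the libraries with the highest Nfkbia. Its log2 fold change was -0.38 ± 0.19 for p53 deletion in CBP-WT mice (adjusted p = 0.272, edgeR) and -0.28 ± 0.13 for p53 deletion averaged over genotypes (adjusted p = 0.239). By length Nfkbia is shorter than all but 15.6% of tested genes and Tnfaip3 longer than 80.6% of them. The part of transcript length and of small-intestinal tissue in these differences was not tested.

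**Figure D2:**
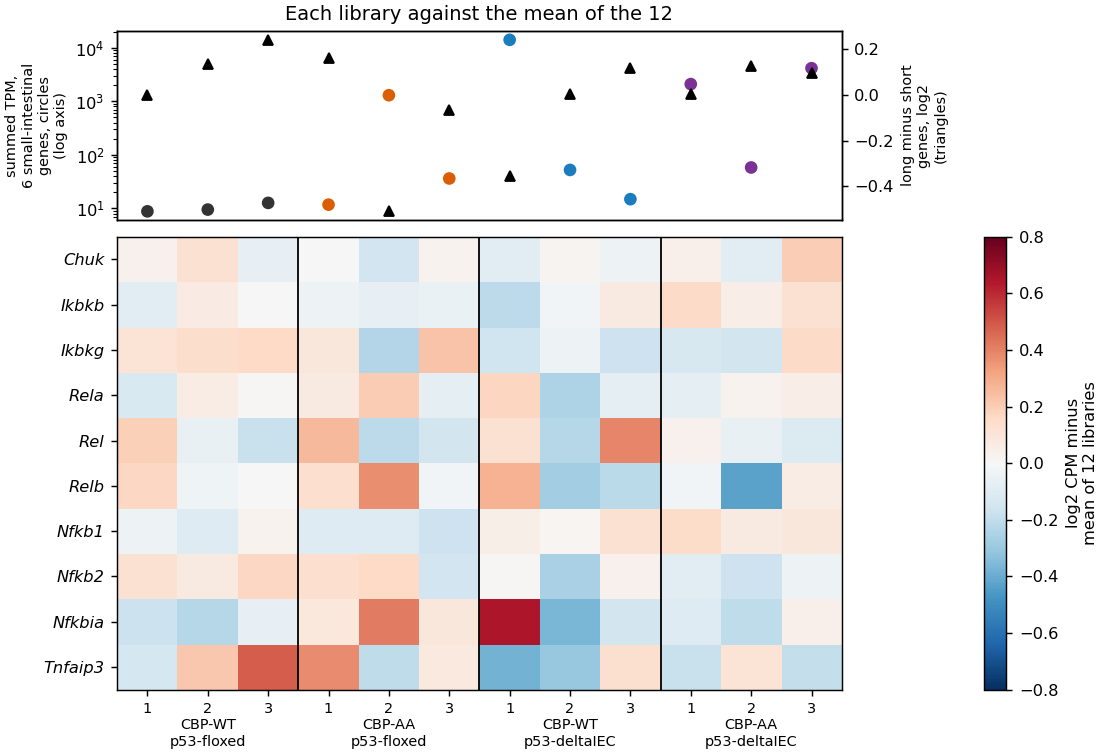
Upper panel, summed TPM of the 6 small-intestinal genes in each library (circles, log axis) and the median log2 level of the longest less the shortest 10% of genes (triangles). Lower panel, the log2 CPM of each gene less its mean over the 12 libraries (colour, red above and blue below). Nfkbia and Relb are highest and Ikbkg is low in CBP-AA p53-floxed mouse 2 and CBP-WT p53-deltaIEC mouse 1, the libraries with triangles at -0.51 and -0.36.

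Across the whole set, no comparison called any of the 10 genes. To be called, a gene needed a log2 fold change beyond 0.5 in either direction together with an adjusted p below 0.05. For CBP-AA against CBP-WT in p53-floxed mice 0 of 10 were called, where 0% of the 14610 genes tested were. No member had an unadjusted p under 0.05, as 8.04% of all genes did, and the members' log2 fold changes ran from -0.11 to 0.36 with a median of -0.06, against 0.01 over all genes. With p53 deleted in CBP-WT mice 0 of 10 were called, against 3.15% of all genes, and 0 had an unadjusted p under 0.05, against 20.9%. The members ran from -0.38 to 0.26 with a median of -0.06. With p53 deleted in CBP-AA mice 0 of 10 were called, against 0.0274%, and Nfkb1 alone had an unadjusted p under 0.05, against 12.6% of all genes. For CBP-AA against CBP-WT in p53-deltaIEC mice 0 of 10 were called, against 0.00684%, and 0 had an unadjusted p under 0.05, against 3.57%. Averaged over CBP genotypes, p53 deletion called 0 of 10, against 3.5%, and Nfkb1 and Nfkb2 had an unadjusted p under 0.05, against 21.9%. Averaged over p53 states, CBP-AA called 0 of 10, against 0.00684%, and 0 had an unadjusted p under 0.05, against 2.57%. The interaction called 0 of 10, against 0.00684%, and 0 had an unadjusted p under 0.05, against 10.3%. DESeq2 called 0 of 10 in each of these 7 comparisons as well. Comparisons that share a control group are not independent of each other.

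**Figure D3:**
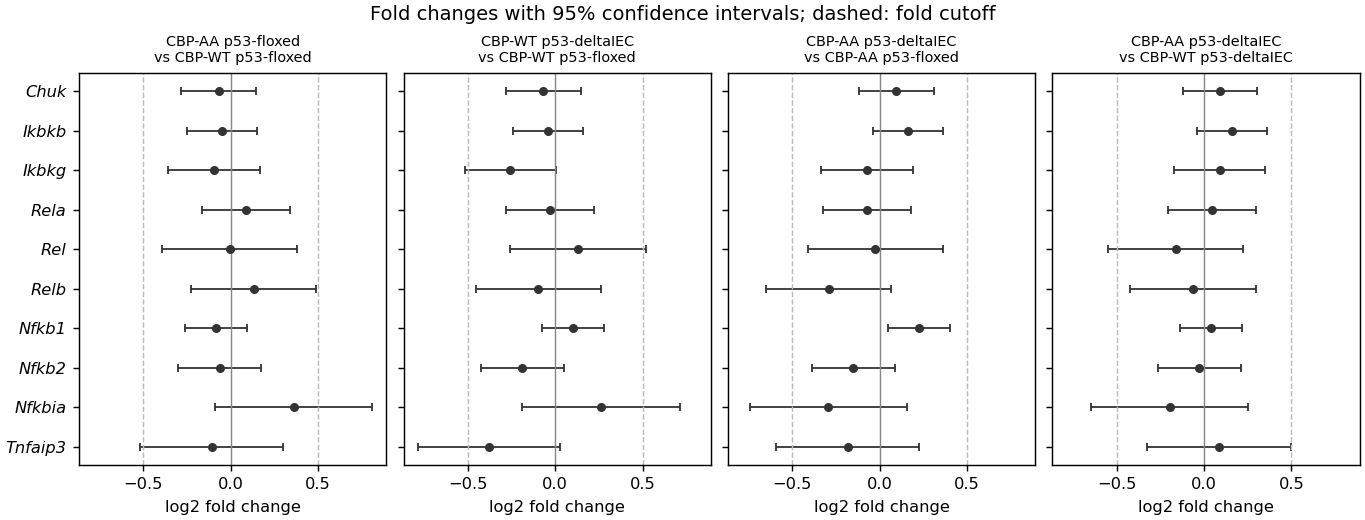
Log2 fold change of each gene in the 4 comparisons between groups, from edgeR on the counts, with 95% intervals. Dashed lines mark the fold cutoff of 0.5. Every estimate lies between the dashed lines, and the interval of Nfkb1 in CBP-AA p53-deltaIEC against CBP-AA p53-floxed mice is the only one of the 40 drawn that leaves out 0.

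The intervals set how large a difference could have been missed. In CBP-AA against CBP-WT p53-floxed mice the 95% intervals of all 10 genes lay within ratios of 0.699 and 1.75, and for p53 deletion in CBP-WT mice within 0.579 and 1.64. Averaged over p53 states, those of CBP-AA lay within 0.780 and 1.32. Counting genes whose CPM did not overlap between the 2 groups gave 1 of 10 for CBP-AA against CBP-WT in p53-floxed mice (Nfkbia, higher), where 19.4% of all genes did not overlap. It gave 2 of 10 for p53 deletion in CBP-WT mice (Ikbkg and Nfkb2, lower), against 30.8%, and 3 of 10 for p53 deletion in CBP-AA mice (Ikbkb and Nfkb1 higher, Nfkbia lower), against 15%. It gave 0 of 10 for CBP-AA against CBP-WT in p53-deltaIEC mice, against 9.26%. An exact two-sided permutation test of TPM reached p = 0.1, the smallest that 3 against 3 mice allow, for Ikbkg with p53 deletion in CBP-WT mice and for Ikbkb and Nfkb1 with p53 deletion in CBP-AA mice. With 6 against 6 mice, permuted within CBP genotype, the smallest exact p for p53 deletion was 0.08 for Nfkb1, and for CBP-AA it was 0.47 for Nfkb2.

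**Figure D4:**
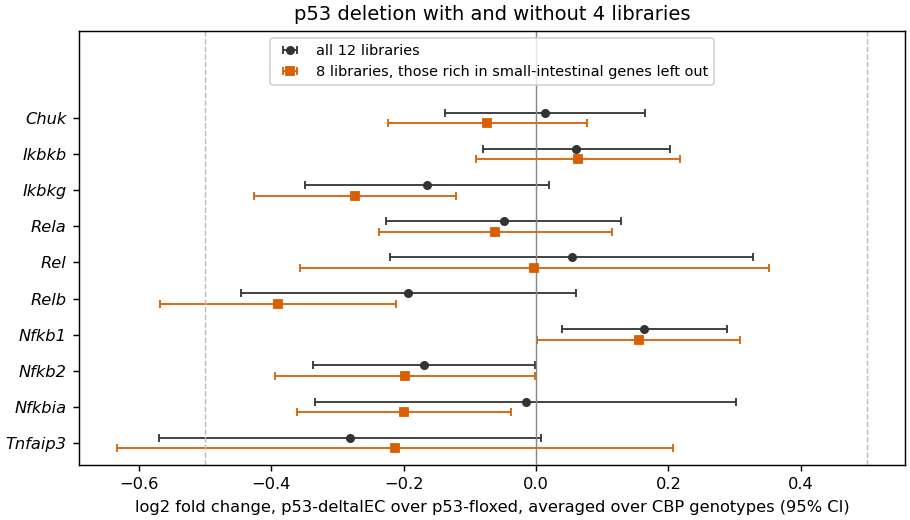
Log2 fold change of each gene for p53 deletion averaged over CBP genotypes, with 95% intervals, from all 12 libraries (circles) and from the 8 left without those rich in small-intestinal genes (squares). Relb moves from -0.19 to -0.39 and Ikbkg from -0.16 to -0.27, and no estimate passes the dashed cutoff of 0.5. Among the 8 libraries the CBP-AA p53-deltaIEC group has 1 mouse.

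Upstream of IKK, 36 of 37 listed receptors, adaptors and kinases were tested, and 0 were called in any of the 7 comparisons, with medians between -0.06 and 0.00. The gene left out, Cd40, had at most 2 reads in a library. Where no gene was called, the pair with the smallest p is given. Tlr5, the flagellin receptor, had a log2 fold change of -0.73 ± 0.19 in CBP-AA against CBP-WT p53-floxed mice (adjusted p = 0.618), with 5.45, 3.92 and 4.84 TPM against 7.95, 8.06 and 9.60 TPM. These groups did not overlap, and in CPM 19.4% of all genes did not overlap in that comparison. Ripk1, the kinase of the tumour necrosis factor receptor complex, was next at -0.24 ± 0.09 (adjusted p = 0.618). After p53 deletion in CBP-WT mice Tlr4, the lipopolysaccharide receptor, had -0.89 ± 0.28 (adjusted p = 0.0953) and Tlr5 -0.57 ± 0.19 (adjusted p = 0.103). Tlr4 stood at 16.4, 19.5 and 18.5 TPM in CBP-WT p53-floxed mice and at 6.71, 11.4 and 10.9 TPM after deletion, without overlap. In CPM 30.8% of all genes did not overlap between these groups. Without the 4 libraries rich in small-intestinal genes Tlr4 fell with p53 deletion, at -0.80 in CBP-WT mice (adjusted p = 2.25e-04) and -0.59 in CBP-AA mice (adjusted p = 0.0402), and DESeq2 on all 12 libraries also called it in CBP-WT mice (adjusted p = 0.0192). Such calls were common: without the 4 libraries 11.4% of 15208 genes were called for p53 deletion in CBP-WT mice, where 3 of 36 upstream genes were, and 6.92% in CBP-AA mice, where 1 of 36 was, while DESeq2 called 5.94% of 14607 genes in CBP-WT mice, where 1 of 36 was. For p53 deletion in CBP-AA mice the adaptors Traf3 and Traf2 had 0.31 ± 0.12 and 0.26 ± 0.12, and for CBP-AA in p53-deltaIEC mice Ikbke, an IKK-related kinase, and the interleukin-1 receptor Il1r1 had 0.28 ± 0.11 and 0.26 ± 0.12, all uncalled. Averaged over CBP genotypes, where DESeq2 called 5.27% of all genes and Tlr4 among them (adjusted p = 0.0191), edgeR gave Tlr4 -0.62 ± 0.20 (adjusted p = 0.0927) and Traf2 0.26 ± 0.08 (adjusted p = 0.0936) with p53 deletion. Tlr5 and Ikbke had -0.34 ± 0.13 and 0.16 ± 0.08 for CBP-AA averaged over p53 states, and Tlr5 and Ripk1 had 0.77 ± 0.26 and 0.33 ± 0.12 in the interaction.

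Of the further inhibitors and modulators, 15 of 15 were tested and 0 were called in any comparison, with medians between -0.19 and 0.12. Nfkbiz and Bcl3, atypical IκB proteins that act in the nucleus, had log2 fold changes of 0.67 ± 0.22 (adjusted p = 0.114) and 0.56 ± 0.22 (adjusted p = 0.166) for p53 deletion in CBP-WT mice. Nfkbiz stood at 19.6, 21.0 and 23.5 TPM in CBP-WT p53-floxed mice and at 19.4, 35.1 and 48.2 TPM after deletion, where the value of 19.4 was that of mouse 1, the library richest in small-intestinal genes. Without the 4 libraries both rose in CBP-WT mice, Nfkbiz by 0.86 (adjusted p = 4.2e-05) and Bcl3 by 0.67 (adjusted p = 0.00615). These 2 of 15 inhibitors stand beside the 11.4% of all genes called in that setting. In CBP-AA against CBP-WT p53-floxed mice the endoribonuclease Zc3h12a had 0.66 ± 0.28 and the ubiquitin ligase Itch -0.21 ± 0.10. The deubiquitinase Otulin had -0.27 ± 0.15 for p53 deletion in CBP-AA mice and -0.29 ± 0.15 for CBP-AA in p53-deltaIEC mice, beside Tax1bp1 at -0.28 ± 0.14 and Nfkbib at -0.23 ± 0.16. Averaged over CBP genotypes, Nfkbiz had 0.52 ± 0.16 (adjusted p = 0.0817) and Bcl3 0.43 ± 0.15 (adjusted p = 0.129) with p53 deletion. Nfkbie and Nfkbid, further IκB proteins, had 0.32 ± 0.19 and 0.26 ± 0.19 for CBP-AA averaged over p53 states, and Zc3h12a and Itch had -0.94 ± 0.39 and 0.29 ± 0.14 in the interaction.

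Of 30 listed NF-kB target genes, 18 were tested, because 12 inflammatory genes were nearly silent: Cxcl1, Cxcl2, Cxcl5, Ccl2, Il6, Il1b, Csf2, Vcam1, Bcl2a1b, Lcn2, Ptgs2 and Mmp9 had means of 0.0129 to 0.0976 TPM. The median log2 fold change of the 18 was 0.37 in CBP-AA against CBP-WT p53-floxed mice, 0.00 for p53 deletion in CBP-WT mice, -0.29 for p53 deletion in CBP-AA mice, 0.02 for CBP-AA in p53-deltaIEC mice and -0.57 for the interaction, while the medians of all genes lay between -0.02 and 0.01. The same CBP-AA p53-floxed libraries enter the values of 0.37, -0.29 and -0.57, the last pair with the opposite sign, so these are not independent. In CBP-AA against CBP-WT p53-floxed mice 14 of 18 were above 0 and 0 were called, where 0% of the 14610 genes tested were. An unadjusted p under 0.05 (edgeR) was reached by 6 of 18, against 8.04% of all genes, and the list as a whole was not tested. Csf1, a macrophage growth factor, had 1.34 ± 0.45 (adjusted p = 0.618) on only 8 to 40 reads in these libraries, and the transcription factor Irf1 0.47 ± 0.17. Such rises were uneven between mice. Irf1 stood at 169, 132 and 84.1 TPM in the CBP-AA p53-floxed mice, against 92.4 to 106 TPM in CBP-WT p53-floxed mice. Csf1 stood at 1.52, 0.782 and 0.512 TPM, against 0.231 to 0.605 TPM. Saa3 went the other way, with the highest value of that group, 11.4 TPM, in mouse 3. Mouse 2 is rich in small-intestinal genes, and whether the median of 0.37 holds without it was not tested. In p53 deletion in CBP-AA mice 3 of 18 were above 0, and the adhesion molecule Icam1 had -1.27 ± 0.40 and Csf1 -1.16 ± 0.44. The farthest point, Nos2 (inducible nitric oxide synthase), singled out after its values were seen, had 3.26 ± 1.73 for p53 deletion in CBP-WT mice (adjusted p = 0.322, edgeR). The one call was Cd83, a surface protein of activated cells, which fell by 0.68 on the log2 scale with p53 deletion in CBP-WT mice (SE 0.17, adjusted p = 0.0481, edgeR), from 17.03, 20.01 and 21.7 TPM to 12.2, 12.9 and 10.2 TPM. In CBP-AA mice Cd83 stood at 17.3, 15.1 and 16.5 TPM before and 12.9, 15.1 and 16.1 TPM after deletion. Averaged over genotypes it had -0.48 ± 0.12 (adjusted p = 0.0410), under the fold cutoff. The call of Cd83 was lost with the replicate block (adjusted p = 0.101), in a fit of the 2 groups alone (adjusted p = 0.0644) and in 9 of 12 fits without a single library, where adjusted p ran from 0.0171 to 0.193. Among these 12 it was kept only without mouse 2 of the CBP-AA p53-floxed group, mouse 1 of the CBP-WT p53-deltaIEC group or mouse 3 of the CBP-AA p53-deltaIEC group. Each is rich in small-intestinal genes, but without the other such library, CBP-AA p53-deltaIEC mouse 1, the call was lost (adjusted p = 0.0533, edgeR). The call was kept with DESeq2 (adjusted p = 0.00832), and without all 4 such libraries the log2 fold change was -0.84. Without the 4 libraries 1 of 18 targets, Saa3, was called in CBP-AA against CBP-WT p53-floxed mice, where 0.276% of all genes were. In the other comparisons of all 12 libraries no target was called, and Ier3 and Cd83 had -0.39 ± 0.18 and 0.26 ± 0.17 for CBP-AA in p53-deltaIEC mice, Cd83 and Csf1 -0.48 ± 0.12 and -0.78 ± 0.34 for p53 deletion on average, Saa3 and Csf1 0.98 ± 0.33 and 0.96 ± 0.34 for CBP-AA on average, and Irf1 and Ccl20 -0.67 ± 0.24 and -1.46 ± 0.61 in the interaction.

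Other lists are given beside the targets. Of the immediate early genes, which respond quickly to handling of tissue, all 13 were tested and 0 were called by edgeR in any comparison. Their median log2 fold change was 0.27 in CBP-AA against CBP-WT p53-floxed mice, with 11 of 13 above 0, and -0.30 for p53 deletion in CBP-AA mice, with 0 of 13 above 0. It was -0.04 for p53 deletion in CBP-WT mice and -0.23 for the interaction. As for the targets, the CBP-AA p53-floxed libraries enter the values of 0.27, -0.30 and -0.23, so these are not independent. Their summed level was 1062 to 1319 TPM in CBP-WT p53-floxed and 924 to 1503 TPM in CBP-AA p53-floxed mice. Leukocyte markers, of which 9 of 15 were tested and 0 called, had medians of 0.26, -0.21, 0.17 and 0.29 in the 4 comparisons between groups in the order given for the targets. Epithelial markers, of which all 10 were tested, had medians of 0.21, 0.27, -0.14 and -0.17 in that order and -0.42 in the interaction, with 10, 10, 3, 1 and 0 of 10 above 0. Of these only Car1, a carbonic anhydrase of colonic surface cells, was called in any comparison, and it rose by 0.62 ± 0.15 with p53 deletion averaged over genotypes (adjusted p = 0.0347, edgeR). The part of these lists in the values of Nfkbia and of the targets was not tested.

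**Figure D5:**
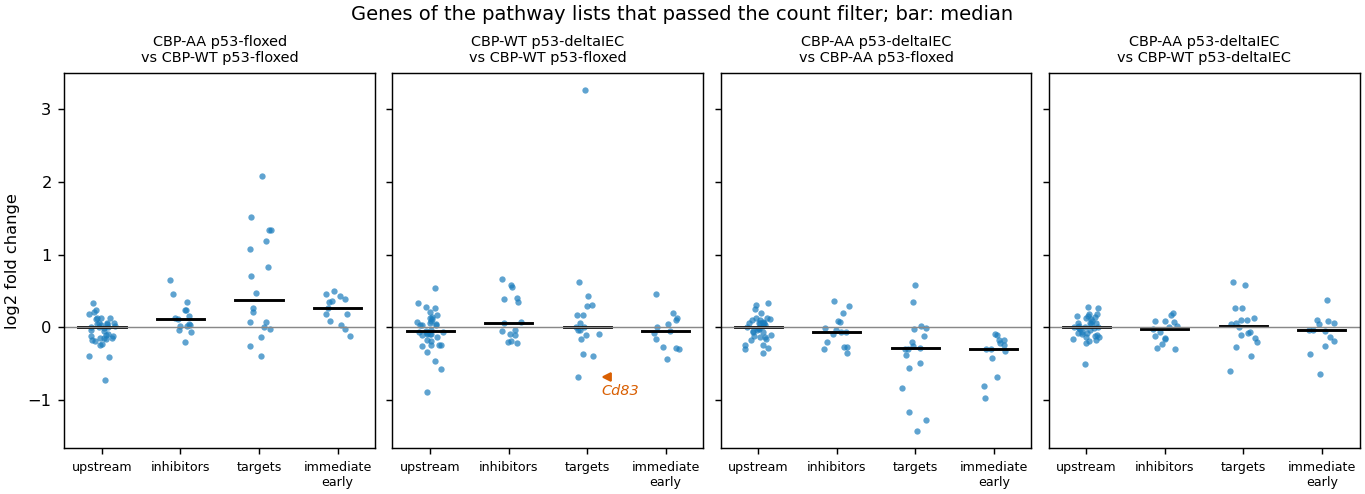
Log2 fold changes of the tested genes of each list (36 upstream genes, 15 inhibitors, 18 targets, 13 immediate early genes) in the 4 comparisons between groups, with a bar at each median. Targets and immediate early genes have medians of 0.37 and 0.27 in the first panel and of -0.29 and -0.30 in the third. Both panels use the same CBP-AA p53-floxed libraries, with opposite signs, so these medians are not independent. Cd83 is marked as the one gene called, a call lost in 9 of 12 fits without a single library. The isolated point at 3.26 is Nos2, which was not called.

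The genes whose log2 CPM ran most like that of Chuk over the 12 libraries, of 14609 compared, were Gm4939 (Pearson r = 0.91, Spearman rho = 0.90), Nup58 (r = 0.86, rho = 0.79) and Stk4 (r = 0.85, rho = 0.78). These are the highest of many values over libraries that share depth and tissue differences, and are given as a description.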

How the data were processed

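Poly(A) RNA of colonic crypts, released with EDTA, was sequenced for 12 mice. The deposited table holds read counts per gene and TPM values that the authors derived from them. The submitters' processing notes name fastp 0.20.0, FastQC 0.11.9, HISAT2 2.1.0, SAMtools 1.9 and Subread 2.0.1 with the genome GRCm38. The annotation and the use of strand are not given in the sources used here. Another 15 columns hold the authors' own fold changes and p-values for 5 comparisons and were not used. The counts were fitted with edgeR 4.0.16 (R 4.3.3) by the quasi-likelihood test on all 12 libraries as 4 groups, with TMM scaling, filterByExpr at a minimum count of 10 and Benjamini-Hochberg adjustment over 14610 genes, which was tested on simulated data. Intervals use the fit's t quantile and cover the spread between these mice. DESeq2 1.42.0, other scaling and filters, a replicate block and fits without single libraries were alternatives. Positions are from GENCODE M21 (GRCm38). The members and lists were chosen with earlier results of these data known. Named were all 10 members, the called genes of each pathway list (upstream, inhibitors, targets) or else the 2 with the smallest p, Trp53 and Crebbp, and the 3 genes most like Chuk. Immediate early genes and cell type markers are given by counts and medians. Car1, Nos2, the 6 small-intestinal genes and the genes named without the 4 libraries were chosen after the values were seen.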

Additional observations from a re-analysis of the deposited data

How the results depend on the processing

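The count of 0 called members stood in all 7 comparisons under each of the settings tried. Of 70 member fold changes, 37 changed sign under at least 1 alternative, and all of these were at most 0.26 in size with all libraries. The cause of each change was not tested.

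With single libraries left out, these log2 fold changes crossed 0. Under CBP-AA in p53-floxed mice Ikbkg ran from -0.20 to 0.019, Nfkb2 ran from -0.13 to 0.025, Rel ran from -0.17 to 0.099 and Tnfaip3 ran from -0.27 to 0.052. With p53 deletion in CBP-WT mice Ikbkb ran from -0.11 to 0.026, Nfkbia ran from -0.11 to 0.46, Rel ran from -0.034 to 0.28, Rela ran from -0.15 to 0.068 and Relb ran from -0.30 to 0.0085. With p53 deletion in CBP-AA mice Ikbkg ran from -0.20 to 0.030 and Rel ran from -0.12 to 0.14. Under CBP-AA in p53-deltaIEC mice Ikbkg ran from -0.014 to 0.14, Nfkb2 ran from -0.12 to 0.025, Nfkbia ran from -0.39 to 0.17, Rel ran from -0.32 to 0.0027, Rela ran from -0.052 to 0.16, Relb ran from -0.17 to 0.13 and Tnfaip3 ran from -0.020 to 0.26. With p53 deletion on average Chuk ran from -0.026 to 0.047, Nfkbia ran from -0.20 to 0.080 and Rel ran from -0.029 to 0.13. Under CBP-AA on average Chuk ran from -0.029 to 0.044, Ikbkg ran from -0.055 to 0.057, Nfkb2 ran from -0.091 to 0.00013, Nfkbia ran from -0.014 to 0.26, Relb ran from -0.024 to 0.13 and Tnfaip3 ran from -0.093 to 0.074. In the interaction Nfkb2 ran from -0.054 to 0.10, Rel ran from -0.31 to 0.0097, Rela ran from -0.14 to 0.080 and Relb ran from -0.30 to 0.0056. Without the 4 libraries rich in small-intestinal genes the sign also turned, giving Ikbkg 0.021, Rel 0.092 and Tnfaip3 0.016 for CBP-AA in p53-floxed mice, Ikbkb 0.025 and Nfkbia -0.11 for p53 deletion in CBP-WT mice, Chuk -0.10 and Rela 0.028 for p53 deletion in CBP-AA mice, Chuk -0.076, Ikbkg -0.039 and Nfkbia 0.049 for CBP-AA in p53-deltaIEC mice, Chuk -0.074 and Rel -0.0026 for p53 deletion on average, Chuk -0.047, Ikbkb -0.010, Relb -0.082 and Tnfaip3 0.099 for CBP-AA on average and Chuk -0.058, Ikbkg -0.060 and Rela 0.18 for the interaction. DESeq2 gave 0.00077 for Rel with CBP-AA in p53-floxed mice, and without a filter on low counts Chuk had -0.0042 for p53 deletion on average.

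Leaving out those 4 libraries raised the number of genes called from 460 to 1729 for p53 deletion in CBP-WT mice, from 4 to 1053 in CBP-AA mice, from 0 to 42 for CBP-AA in p53-floxed mice and from 511 to 1692 for p53 deletion on average, and DESeq2 called 867 and 770 genes for p53 deletion in CBP-WT mice and on average. Without those 4 libraries the lists held calls of 3 upstream genes (Tlr4, Tnfrsf12a and Nod2), 2 inhibitors (Nfkbiz and Bcl3) and 1 target (Cd83) for p53 deletion in CBP-WT mice, 1 upstream gene (Tlr4) and 1 target (Traf1) for p53 deletion in CBP-AA mice, 1 target (Saa3) for CBP-AA in p53-floxed mice, and 1 upstream gene, 3 inhibitors and 3 targets for p53 deletion on average, where 11.4%, 6.92%, 0.276% and 11.1% of all genes were called in these comparisons. DESeq2 called 1 upstream gene (Tlr4) and 1 inhibitor (Nfkbiz) for p53 deletion in CBP-WT mice and on average, and 1 target (Cd83) in CBP-WT mice, where it called 5.94% and 5.27% of all genes, a fit of the 2 groups alone called 1 upstream gene and 0 targets in CBP-WT mice, and without the fold cutoff 1 target passed on average. With single libraries left out, the calls ranged from 0 to 1 in each list for p53 deletion in CBP-WT mice, and on average from 0 to 1 upstream gene, 0 to 2 inhibitors and 0 to 2 targets. Without the 4 libraries the calls of Tlr4 and Traf1 for p53 deletion in CBP-AA mice rest on 1 deleted mouse. In TPM in place of CPM, 0 members rather than 1 did not overlap for CBP-AA in p53-floxed mice, and 1 rather than 2 for p53 deletion in CBP-WT mice. For p53 deletion in CBP-AA mice Nfkbia overlapped in TPM, while Ikbkb and Nfkb1 still did not.

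Replicate numbers are shared between groups in the labels. The deviations of same-numbered libraries from their group means had r from -0.53 to 0.55 (18 pairs, median -0.03). Those of differently numbered libraries had r from -0.66 to 0.64 (36 pairs, median -0.0026). Whether a number stands for a batch was not tested. With the replicate block the call of Cd83 was lost (0 targets called), Tnfaip3 had 0.0048 for CBP-AA on average, and no other call changed.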
